A study of Mus musculus with 11 samples.

Results

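Transcripts of 10 genes that encode components of basement membranes were followed in skin fibroblasts, comparing unwounded back skin (NS, normal skin) with wounds of 5 days (5dw). The genes were taken by name from the deposited table of 47643 gene symbols: Col4a1, Col4a2, Col15a1, Col18a1, Lama2, Lama4, Lamb1, Lamc1, Nid1 and Hspg2. All 10 were found, and all 10 passed the filter on low values that left 11979 genes for testing. Live cells with CD140a (encoded by Pdgfra) on their surface and without CD45 (encoded by Ptprc) had been sorted from mice aged 9 to 12 weeks, of a mixed background of 50% CD-1 and 50% C57Bl/6. The labels give CD3, CD11b and F4/80 as further negative markers of the sort, of which the study's methods name CD11b and F4/80, and the Cd3e transcript was at 55.5 to 105 RPKM in 5dw and 2.94 to 33.9 in NS. The Act mice overexpress activin, a secreted growth factor, from a transgene under the K14 promoter, which drives it in keratinocytes, and the WT mice were their littermates without it. WT NS, Act NS and WT 5dw each had 3 libraries, Act 5dw had 2 (numbers 1 and 3), and each library was made from poly-A RNA pooled from 3 animals. By the study's methods, the pooled RNA was adjusted to a larger amount for 5dw than for NS. The amount of RNA and the tissue therefore cannot be told apart in any comparison of 5dw with NS. The wounds were excisional.

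Basement membranes are thin sheets of matrix on which epithelia, vessels, nerves, muscle fibres and fat cells rest. Laminins, trimers of an alpha, a beta and a gamma chain, bind cell surface receptors and assemble first into a sheet. Collagen IV forms a second network that gives the sheet its strength, and nidogens and the heparan sulfate proteoglycan perlecan (Hspg2) link both. Collagens XV and XVIII, the multiplexins, sit at the border between the basement membrane and the underlying fibrils. In skin, fibroblasts supply a large share of these proteins to the membranes of neighbouring cells.

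The 5dw fibroblasts held less collagen IV and Lama2 RNA than NS fibroblasts in both genotypes. Col4a1 fell 3.06-fold in WT and 5.57-fold in Act, Col4a2 fell 2.27-fold and 4.55-fold, and Lama2 fell 4.62-fold and 3.77-fold. Col15a1 and Lamc1 fell by smaller steps, and Col18a1 fell at the margin of the test in WT. Lama4, Lamb1, Nid1 and Hspg2 did not pass the test in either genotype with the values as deposited. RPKM corrects read numbers for transcript length and sequencing depth, so each value is relative to its whole library. In bulk RNA of this kind, fewer cells of a type and less RNA per cell cannot be told apart.

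Facts of the whole table set the frame for these values. Depth recovered from the RPKM values was 18649321 to 39702138 mapped reads per library, and at least 1757 reads lay behind every value of the 10 genes, 8 of which gave whole reads in all 11 libraries, so the number of libraries limits precision more than depth does. Depth differed by group, with 38740404 to 39702138 reads in WT 5dw, 20531292 and 25626301 in Act 5dw, and at most 29718956 in NS. The mouse Inhba transcript, which encodes the activin subunit, was at 36.3 to 91.1 RPKM in Act NS and 3.40 to 6.93 in WT NS (limma, adjusted p = 0.013), while Act 5dw, at 26.2 and 50.2, did not pass against WT 5dw, at 15.8 to 24.0 (limma, adjusted p = 1.0). Pdgfra was at 29.6 to 65.3 RPKM and Ptprc below 0.05 in every library. The NS libraries numbered 1 of both genotypes stood apart from the other NS libraries on the second principal component. The median gene of all tested was lower in 5dw, by a log2FC of -0.40 in WT and -0.31 in Act, and median-ratio scaling of the libraries sets this shift to 0.01 in both. For the 10 genes, calls that change under that scaling or without the 2 NS libraries are given beside each gene.

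Collagen IV is a trimer in which the Col4a1 chain outnumbers the Col4a2 chain, and both genes start head to head. Col4a1 lies on the minus strand (GRCm38, GENCODE M21, chr8:11198423-11312826) and Col4a2 on the plus strand (chr8:11312805-11449287), so that their first exons share 22 bases. This shared start is shown because the transcripts of both genes moved together. It is the RefSeq sequence of chr8:11312801-11312830 (GRCm38.p6, plus strand), in which capitals mark the bases transcribed on both strands.
Col4a1 and Col4a2 starts: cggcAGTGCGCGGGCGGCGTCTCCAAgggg
The 250 bases before the RefSeq start held 1 CCAAT match for Col4a1 and 1 for Col4a2, and 0 and 2 matches to the GC box GGGCGG. Both strands were searched, and the windows of both genes share no base. Of 32851 mouse upstream windows of this length, 33.8% held a CCAAT and 32.7% a GGGCGG.

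Col4a1 was at 194, 184 and 249.5 RPKM in WT NS, 246, 227 and 235 in Act NS, 58.1, 66.1 and 80.0 in WT 5dw, with 35.6 and 49.2 in Act 5dw. Col4a2 was at 93.5, 81.5 and 127 RPKM in WT NS, 129.7, 106 and 119 in Act NS, 37.5, 41.9 and 51.6 in WT 5dw, with 20.96 and 30.8 in Act 5dw. Every 5dw library lay below every NS library for both genes, as for 38.9% of all tested genes, and both Act 5dw libraries lay below every WT 5dw library. On the log2(RPKM + 0.5) scale, Col4a1 changed by -1.61 (SE 0.17) in WT and -2.48 (SE 0.19) in Act, with limma adjusted p = 4.3e-05 and 9.7e-06. Col4a2 changed by -1.18 (SE 0.20) in WT and -2.19 (SE 0.23) in Act, with limma adjusted p = 7.0e-04 and 4.9e-05. Under median-ratio scaling these changes were -1.16 and -2.12 for Col4a1 and -0.73 and -1.83 for Col4a2, all still past the test.

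The chains did not fall to the same degree. The ratio of Col4a1 to Col4a2 RPKM within a library, which no scaling of libraries can alter, was 1.90 to 2.26 in the 6 NS libraries and 1.55 to 1.70 in the 5 5dw libraries. The tissues did not overlap, and the log2 ratio was 0.36 smaller in 5dw by group means within genotype (exact two-sided permutation test within genotypes, p = 0.005, the smallest that 200 arrangements can give, and 0.0075 after adjustment over 6 ratios). With libraries paired by number, 5 pairs allow no p below 0.0625, so no ratio could pass in that form.

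Col15a1 and Col18a1 encode the multiplexins, and the C-terminal part of collagen XVIII is released as endostatin. Col15a1 (chr4:47208161-47313167, plus strand) was at 114, 89.1 and 125 RPKM in WT NS, 119.8, 98.9 and 149 in Act NS, 70.6, 63.4 and 63.8 in WT 5dw, with 50.4 and 54.5 in Act 5dw. All 5dw values were lower than all NS values. Its log2FC was -0.71 in WT (limma, adjusted p = 0.0049) and -1.20 in Act (limma, adjusted p = 7.2e-04). With median-ratio scaling it was -0.26 in WT, which no longer passed (limma, adjusted p = 0.21), and -0.84 in Act, which did.

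Col18a1 (chr10:77052178-77166548, minus strand) was at 37.2, 18.9 and 30.4 RPKM in WT NS, 33.1, 28.3 and 34.0 in Act NS, 20.6, 16.9 and 19.2 in WT 5dw, with 12.2 and 15.6 in Act 5dw. WT NS replicate 2 lay inside the WT 5dw range, while the Act tissues did not overlap, as for 49.8% of all tested genes with Act 5dw lower. The log2FC of -1.17 in Act passed the test (limma, adjusted p = 0.0029). The log2FC of -0.55 in WT was just past it (limma, adjusted p = 0.048) and lost the call in 15 of 19 alternative settings, among them median-ratio scaling at -0.10 and the fit without the 2 NS libraries numbered 1 at -0.34. The ratio of Col15a1 to Col18a1 was 3.07 to 4.72 in NS and 3.33 to 4.13 in 5dw, with overlapping tissues (exact permutation test, adjusted p = 0.44).

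**Figure D1:**
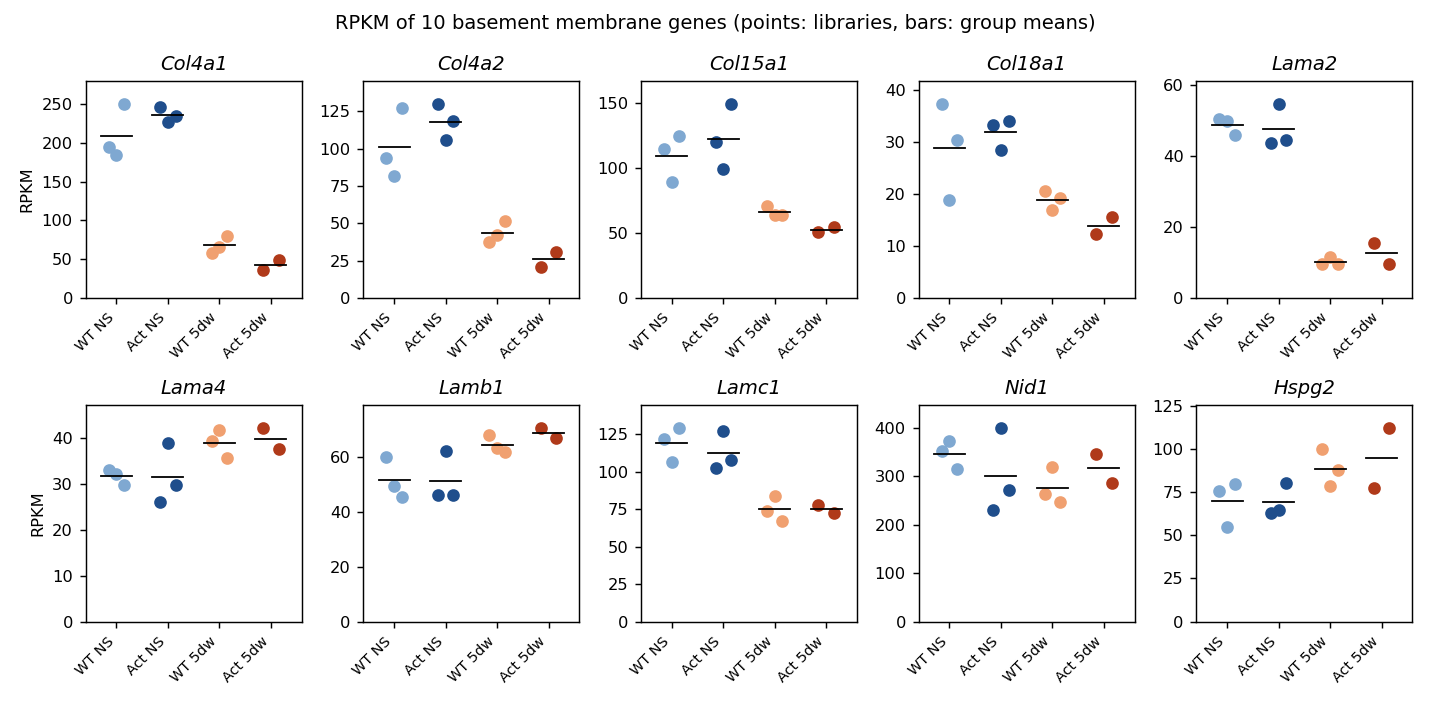
RPKM (vertical axes, each from 0) of the 10 basement membrane genes in the 4 groups. Each point is a library and each bar a group mean; Col4a1, Col4a2, Col15a1, Lama2 and Lamc1 have every 5dw point below every NS point, and the other 5 genes overlap.

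The laminin genes split. Lama2 encodes the alpha chain best known from the membranes around muscle fibres and peripheral nerve, and Lama4 the alpha chain of vessel walls and other mesenchymal membranes. Both chains trimerise with those of Lamb1 and Lamc1. Lama2 (chr10:26980036-27619758, minus strand) had the lowest log2FC of the 10 genes in WT 5dw against WT NS, and Hspg2 had the highest, so the bases before the start of each are shown. For Lama2 these are the 250 bases before the RefSeq start (GRCm38.p6, chr10:27616943-27617192, minus strand), a start that lies inside the longer GENCODE gene.
Lama2: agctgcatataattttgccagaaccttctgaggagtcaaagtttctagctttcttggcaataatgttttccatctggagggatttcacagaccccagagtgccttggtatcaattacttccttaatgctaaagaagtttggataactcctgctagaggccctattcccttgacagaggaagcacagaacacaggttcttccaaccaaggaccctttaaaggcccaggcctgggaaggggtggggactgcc
On either strand, the stretch has no match to the GC box, the CCAAT box or the TATA box (letters TATAAA). It has none to the AP-1 element (letters TGANTCA) or the Smad palindrome (letters GTCTAGAC) either. The last 3 occur in 12.4%, 6.75% and 0.167% of all upstream windows.

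Lama2 was at 50.3, 49.8 and 46.0 RPKM in WT NS, 43.6, 54.5 and 44.6 in Act NS, 9.52, 11.4 and 9.55 in WT 5dw, with 15.6 and 9.50 in Act 5dw. The lowest NS library was far above the highest 5dw library. Its log2FC was -2.21 (SE 0.17) in WT and -1.92 (SE 0.19) in Act, with limma adjusted p = 5.7e-06 and 4.4e-05, and -1.76 and -1.57 with median-ratio scaling. An antisense gene, Gm48084, covers 631 exon bases of Lama2, and the strand setting of the counting is not stated.

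Lama4 (chr10:38965515-39110188, plus strand) was at 33.0, 32.2 and 29.7 RPKM in WT NS, 26.0, 38.9 and 29.8 in Act NS, 39.3, 41.8 and 35.6 in WT 5dw, with 42.1 and 37.5 in Act 5dw. The WT tissues did not overlap, with 5dw higher, as for 11.4% of all tested genes, and in Act the NS replicate 2 lay between the 5dw values. The log2FC was 0.29 in WT and 0.35 in Act, and neither passed (limma, adjusted p = 0.12 and 0.11). Without Act NS replicate 2 it was 0.51 in Act and passed (limma, adjusted p = 0.024), and with median-ratio scaling it was 0.74 and 0.70 and passed in both. The ratio of Lama2 to Lama4 was 1.40 to 1.68 in NS and 0.242 to 0.370 in 5dw, 5.21-fold smaller in 5dw (exact permutation test, p = 0.005, adjusted p = 0.0075). Lama2 thereby made up 60.6% ± 0.224 (SD, n = 3) of the summed RPKM of both alpha chains in WT NS and 20.7% ± 1.06 (SD, n = 3) in WT 5dw. The same share was 60.3% ± 2.16 (SD, n = 3) in Act NS and 23.6% ± 4.797 (SD, n = 2) in Act 5dw.

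Lamb1 (chr12:31265234-31329644, plus strand), the partner beta chain, was at 60.1, 49.4 and 45.4 RPKM in WT NS, 46.1, 62.0 and 46.0 in Act NS, 67.8, 63.0 and 61.8 in WT 5dw, with 70.5 and 66.8 in Act 5dw. The 5dw libraries were higher than the NS libraries within each genotype, as for 14.4% of all tested genes in Act, and the log2FC of 0.32 in WT and 0.43 in Act did not pass (limma, adjusted p = 0.089 and 0.059). Lamc1 (chr1:153218922-153332786, minus strand), the gamma chain, was at 122, 106 and 129 RPKM in WT NS, 102, 127 and 108 in Act NS, 73.7, 83.8 and 67.2 in WT 5dw, with 77.7 and 72.2 in Act 5dw. All 5dw values of Lamc1 were below all NS values, with a log2FC of -0.67 in WT and -0.58 in Act (limma, adjusted p = 0.0021 and 0.011). Under median-ratio scaling the calls change places. Lamb1 passed as higher at 0.77 and 0.78, while Lamc1 at -0.21 and -0.22 did not pass. Lamb1 also passed in WT without WT NS replicate 1 (0.43) and without both NS libraries numbered 1 (0.43; limma, adjusted p = 0.024), and in Act with a replicate block (0.46), when Act NS replicate 2 was left out (0.57) or when WT NS replicate 1 was (0.43), and Lamc1 lost its call in Act without Act 5dw replicate 3 (-0.52). The ratio of Lamb1 to Lamc1 was 0.351 to 0.493 in NS and 0.752 to 0.926 in 5dw, without overlap, and 1.99-fold larger in 5dw (exact permutation test, adjusted p = 0.0075).

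**Figure D2:**
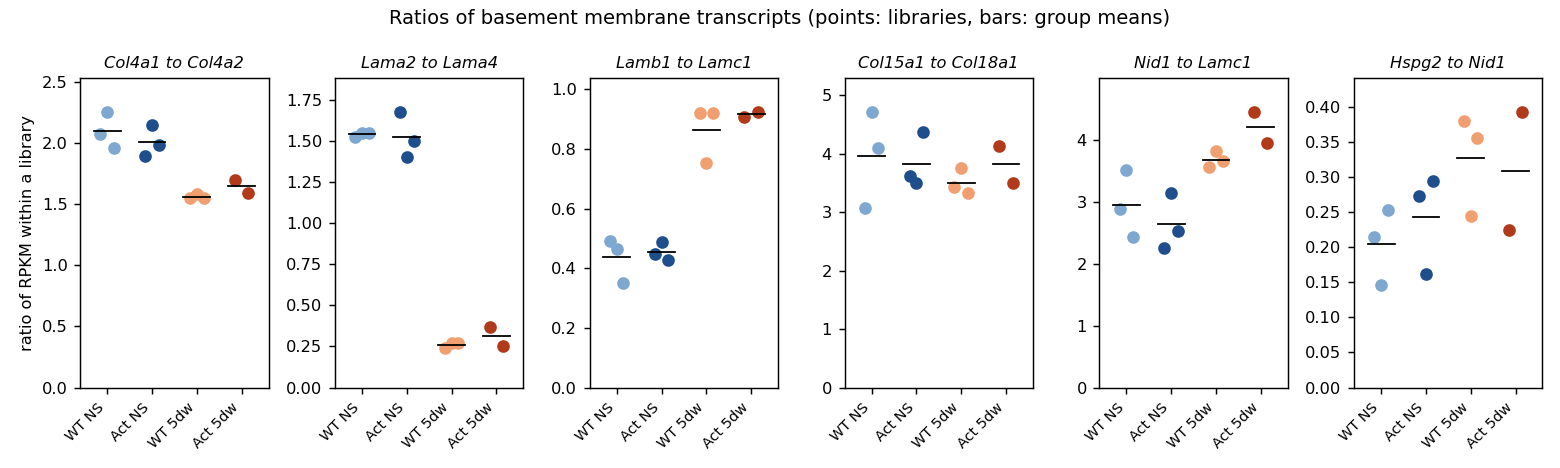
Ratio of the RPKM of 2 transcripts within each library (vertical axes, each from 0) for 6 pairs of genes in the 4 groups, with libraries as points and group means as bars. Lama2 to Lama4 is at most 0.370 in 5dw and at least 1.40 in NS, and Col15a1 to Col18a1 and Hspg2 to Nid1 overlap between tissues.

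Nid1 encodes nidogen-1, which joins the laminin gamma chain to collagen IV. Nid1 (chr13:13437551-13512269, plus strand) had the highest mean RPKM of the 10 genes in both tissues. It was at 352, 373 and 315 RPKM in WT NS, 231, 399.6 and 272 in Act NS, 263, 320.0 and 246 in WT 5dw, with 347 and 286 in Act 5dw. The tissues overlapped in both genotypes, and the log2FC was -0.33 in WT and 0.10 in Act (limma, adjusted p = 0.18 and 0.74). Against Lamc1, its binding partner, Nid1 stood at a ratio of 2.25 to 3.51 in NS and 3.57 to 4.46 in 5dw, without overlap and 1.42-fold larger in 5dw (exact permutation test, adjusted p = 0.0075). Of the 31-base sequences of Nid1, 4.05% also occur in another gene, mainly Gm2399.

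Perlecan, the product of Hspg2, is a very large proteoglycan that also binds growth factors through its heparan sulfate chains. Hspg2 lies at chr4:137468769-137570630 on the plus strand, and the 216 bases before its first exon (GRCm38.p6, chr4:137468553-137468768, plus strand, from RefSeq) follow, with GGGCGG in capitals.
Hspg2: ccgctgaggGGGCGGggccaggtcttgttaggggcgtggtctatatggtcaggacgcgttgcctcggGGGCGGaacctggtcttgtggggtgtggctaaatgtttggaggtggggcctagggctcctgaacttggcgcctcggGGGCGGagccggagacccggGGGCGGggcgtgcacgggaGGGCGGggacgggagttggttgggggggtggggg
The stretch holds 5 matches, against 0 in the Lama2 window, and has neither a CCAAT box nor a TATA box. RefSeq windows were found for 8 of the 10 genes, and in the first window of each, 5 of 8 held a GC box and 5 of 8 a CCAAT box, while the TATA box, the AP-1 element and the Smad palindrome were in none.

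Hspg2 was at 75.6, 54.5 and 79.5 RPKM in WT NS, 62.9, 64.5 and 80.0 in Act NS, 99.8, 78.4 and 87.6 in WT 5dw, with 77.5 and 112 in Act 5dw. The tissues overlapped in both genotypes by 1 library on each side. The log2FC was 0.35 (SE 0.19) in WT and 0.44 (SE 0.22) in Act, and did not pass (limma, adjusted p = 0.14 and 0.12). With median-ratio scaling it was 0.81 and 0.79 and passed in both (limma, adjusted p = 0.0041 and 0.0093). The ratio of Hspg2 to Nid1 was 0.146 to 0.294 in NS and 0.224 to 0.393 in 5dw and overlapped (exact permutation test, p = 0.09, adjusted p = 0.108).

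Counted over the 10 genes, 6 were DEGs with lower and 0 with higher RNA in WT 5dw against WT NS, where 48.8% of all tested genes were called lower and 9.45% higher. In Act 5dw against Act NS the same 6 genes were lower and 0 higher, where 36.5% of all tested genes were called lower and 9.04% higher. Their median log2FC was -0.61 in WT and -0.88 in Act, beside -0.40 and -0.31 for all tested genes. All 5dw libraries lay below all NS libraries for 5 of the 10 genes, against 38.9% of all tested genes, and above for 0, against 8.45%. Under median-ratio scaling 3 genes were lower (Col4a1, Col4a2 and Lama2) and 3 higher (Lama4, Lamb1 and Hspg2) in WT, beside a background of 21.7% and 23.0%. In Act, 5 were lower (with Col15a1 and Col18a1) and the same 3 higher, beside 20.4% and 20.4%. Removal of the GC trend of each library, an alternative chosen after seeing the data, gave the same 3 and 3 genes in WT and the same 5 and 3 in Act. Without the 2 NS libraries numbered 1, Col18a1 lost its call in WT and Lamb1 gained one as higher (log2FC 0.43), while the 6 calls in Act stayed.

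**Figure D3:**
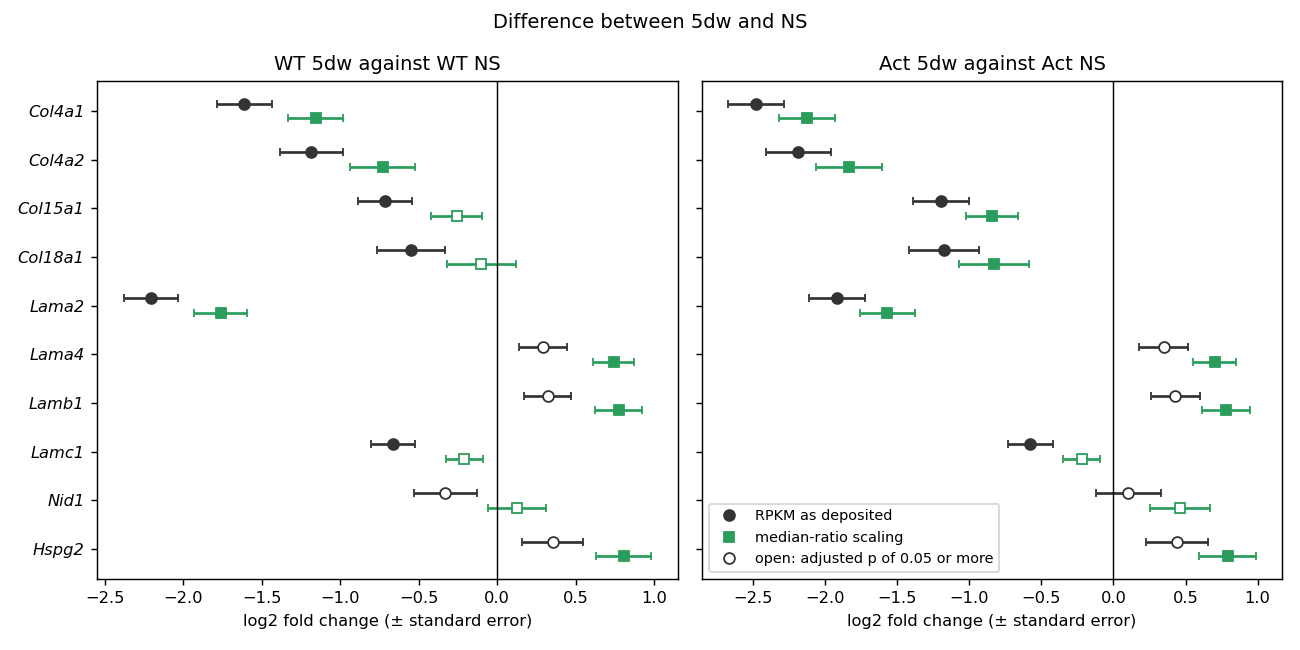
Log2 fold change of 5dw against NS (horizontal axis, with standard error bars) for the 10 genes in WT (left) and Act (right), with RPKM as deposited (circles) and after median-ratio scaling (squares). Filled symbols have a limma adjusted p under 0.05; Lama4, Lamb1 and Hspg2 are open circles but filled squares above 0 in both genotypes.

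The make-up of the summed basement membrane RNA shifted with these changes. The 10 genes summed to 1038 to 1206 RPKM in NS and 723 to 787 in 5dw. Collagen IV made up 27.7% ± 3.78 (SD, n = 3) of this sum in WT NS, 31.8% ± 4.27 (SD, n = 3) in Act NS, 14.95% ± 2.85 (SD, n = 3) in WT 5dw and 9.23% ± 2.37 (SD, n = 2) in Act 5dw. The share of Hspg2 was 6.23% (WT) and 6.19% (Act) in NS, and 11.9% (WT) and 12.8% (Act) in 5dw. RPKM is per length, so genes can be ranked, and over both genotypes the order by mean in NS was Nid1, Col4a1, Col15a1, Lamc1, Col4a2, Hspg2, Lamb1, Lama2, Lama4 and Col18a1. In 5dw it was Nid1, Hspg2, Lamc1, Lamb1, Col15a1, Col4a1, Lama4, Col4a2, Col18a1 and Lama2. The order in Act 5dw alone was the same, while in WT 5dw Lamc1 was followed by Col4a1, Col15a1 and Lamb1, and Col4a2 stood before Lama4. In WT NS Lamc1 stood before Col15a1, and in Act NS Col4a2 stood before Lamc1 and Col18a1 before Lama4. Neighbours that did not hold their order in every library were, in NS, Nid1 and Col4a1, Col15a1 and Lamc1, Lamc1 and Col4a2, Lamb1 and Lama2, and Lama4 and Col18a1. In 5dw they were Hspg2 and Lamc1, Lamb1 and Col15a1, Col15a1 and Col4a1, Col4a1 and Lama4, Lama4 and Col4a2, and Col18a1 and Lama2.

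The genotypes were compared to ask whether excess activin alters these transcripts. None of the 10 was a DEG in Act NS against WT NS, where limma called 2 genes in all (0.0167%) and 824 had an unadjusted p under 0.05, none of them among the 10. The log2FC of the 10 genes ran from -0.24 for Nid1 to 0.25 for Col4a2, and the groups overlapped for every one. None was a DEG in Act 5dw against WT 5dw either, where limma called 4 genes (0.0334%) and 386 had an unadjusted p under 0.05, among them Col4a1 and Col4a2. Col4a1 was at a log2FC of -0.68 (SE 0.19; limma, adjusted p = 0.75) and Col4a2 at -0.76 (SE 0.23; limma, adjusted p = 0.87), with both Act libraries below all 3 WT libraries. Col15a1 and Col18a1 also lay wholly lower in Act 5dw, which makes 4 of the 10 genes, where 15.2% of all tested genes had Act 5dw wholly below WT 5dw. The difference of the wound response between genotypes, tested as an interaction, was -0.87 (SE 0.26) for Col4a1 and -1.002 (SE 0.30) for Col4a2 (limma, adjusted p = 0.92 for both). None of the 11979 tested genes passed that limma test (0.0%), and 400 had an unadjusted p under 0.05.

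Within groups, the 10 genes varied in a pattern that the tissue comparison does not show. Each gene's deviations from its group means were correlated over the 11 libraries, which leaves 7 degrees of freedom, as a description without a test. Col4a1 and Col4a2 deviated together at r = 0.98. Among the 4 laminin genes and Nid1 all 10 pairs were positive, at 0.44 to 0.97 with a median of 0.69. Among the 4 collagen genes and Hspg2 all 10 pairs were also positive, at 0.32 to 0.98 with a median of 0.53. Between these classes, which were formed after the values were seen, 22 of 25 pairs were negative, with a median of -0.47. The classes also differ in base composition, with a GC content of 56.4% to 60.9% for the collagen genes and Hspg2 and 47.7% to 53.0% for the laminin genes and Nid1. The deviations of all genes in a library ran with GC content at r = -0.45 in WT NS replicate 2, 0.38 in WT NS replicate 1, and -0.44 and 0.44 in the 2 Act 5dw libraries. After the GC trend of each library was removed, the median among collagens and Hspg2 was 0.15 and 3 of 10 pairs were negative, the median among laminins and Nid1 was 0.69, and all 25 pairs between the classes were negative.

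**Figure D4:**
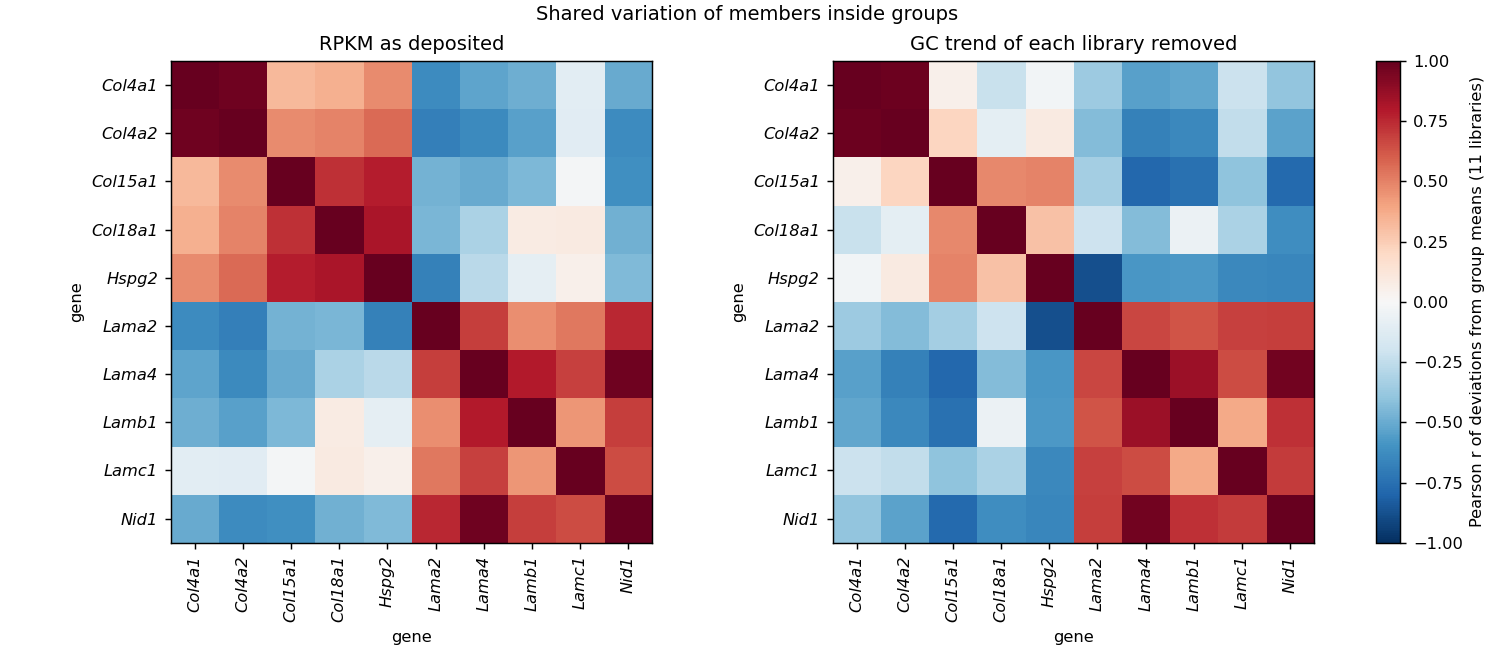
Pearson r (colour, from -1 to 1) between the deviations of each pair of genes from their group means over 11 libraries, with RPKM as deposited (left) and after removal of each library's GC trend (right). The block of the laminin genes and Nid1 stays red on both sides, with medians of 0.69 and 0.69, while the block of collagens and Hspg2 pales from a median of 0.53 to 0.15.

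For each gene, the tested gene outside the 10 with the highest correlation over the 11 libraries was noted, again without a test, since a shared tissue difference alone gives high values. Both collagen IV genes ran most closely with Svep1 (r = 0.99 and 0.98), a large secreted adhesion protein that was at a mean of 40.4 RPKM in NS and 18.3 in 5dw. Lama2 ran with Tmod2 (r = 0.998), and 1037 genes correlated with Lama2 above 0.95. Lamc1 ran with the receptor kinase Axl (0.99), Col18a1 with Gpx1 (0.98) and Col15a1 with Plekhm1 (0.98). Lama4 ran with the fibril-associated collagen gene Col14a1 (0.95), at means of 139 RPKM in NS and 227 in 5dw, Lamb1 with Gm8174 (0.95), Hspg2 with Slc19a1 (0.94) and Nid1 with 4931406C07Rik (0.93).

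The other chains of the same families showed which relatives fibroblasts held. Of 13 further collagen IV, laminin, nidogen and agrin genes, 11 passed the filter, and Col4a6 and Lama1 did not. In WT, 1 rose and 5 fell, and in Act, 1 rose and 6 fell, to be read against the 9.45% higher and 48.8% lower of all tested genes in WT and 9.04% and 36.5% in Act. Lamc3, another laminin gamma chain, fell most, from 10.5 to 15.4 RPKM in WT NS to 0.0992 to 0.364 in WT 5dw (log2FC -4.12, limma adjusted p = 8.6e-07). Col4a4 and Col4a3, which encode chains of a different collagen IV trimer, had log2FCs of -1.98 and -1.84, at 3.16 to 3.83 and 1.54 to 2.92 RPKM in WT NS. Nid2, the relative of Nid1, was the single gene of the list that rose, from 17.0 to 20.8 RPKM in WT NS to 28.7 to 34.2 in WT 5dw (log2FC 0.76, limma adjusted p = 0.0033). Its log2FC of 0.55 in Act lost the call without either Act 5dw library (0.68 and 0.41), Act NS replicate 1 (0.46), Act NS replicate 3 (0.45), WT 5dw replicate 1 or 3 (0.55 in both fits), or both NS libraries numbered 1 (0.46; limma, adjusted p = 0.091). Lamb2, the other main beta chain, had the highest mean of the list, at 97.9 RPKM in NS and 31.8 in 5dw. With median-ratio scaling 2 of these genes rose and 4 fell in WT, and 2 rose and 5 fell in Act. Of all genes tested with that scaling, 23.0% were higher and 21.7% lower in WT, and 20.4% and 20.4% in Act. Lama5, which fell in both genotypes as deposited (log2FC -1.17 in each), did not pass the filter with that scaling and so left these counts.

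**Figure D5:**
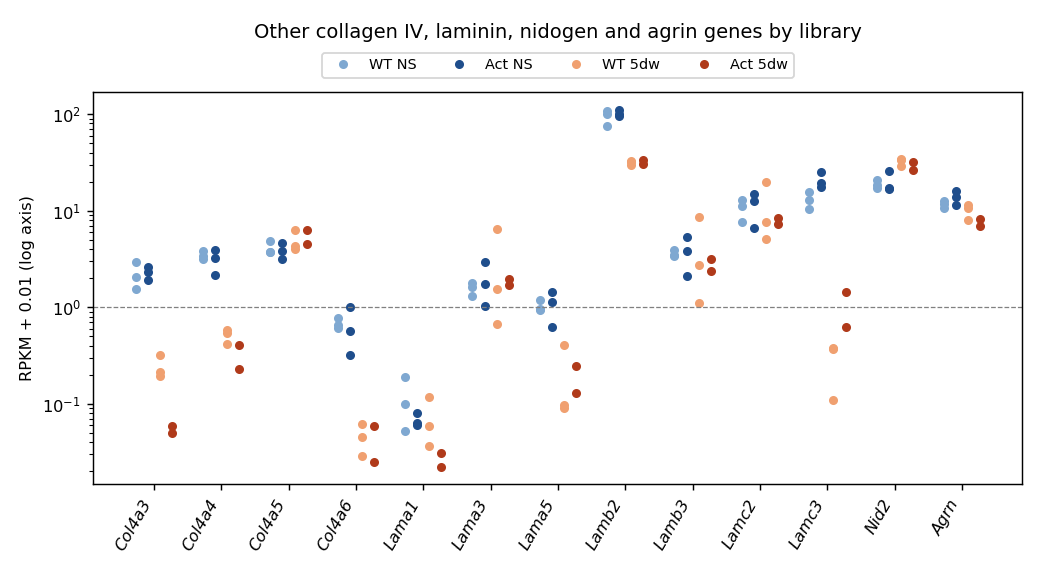
RPKM + 0.01 (vertical log axis) of 13 other collagen IV, laminin, nidogen and agrin genes, with libraries as points coloured by group and a dashed line at an RPKM of 1. Lamb2 is the most abundant at a mean of 97.9 RPKM in NS, and Lamc3 falls below 1 in all 3 WT 5dw libraries.

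Of 20 genes for proteins that bind basement membranes, 17 were tested, 5 rose and 6 fell in WT, and 6 rose and 7 fell in Act, where 9.45% (WT) and 9.04% (Act) of all tested genes rose and 48.8% and 36.5% fell. Bgn (a small leucine-rich proteoglycan), Sparc (a collagen-binding protein that aids collagen IV deposition) and Fbln2 (fibulin-2) rose most in WT, with log2FCs of 1.88, 1.43 and 1.34. Ntn1 (netrin-1), Col17a1 (a hemidesmosomal collagen of keratinocytes) and Smoc1 (a Sparc relative) fell most, with -3.26, -2.30 and -1.91. Of 18 receptor genes, all 18 were tested, 4 rose and 10 fell in WT, and 2 rose and 10 fell in Act, beside the same shares of all tested genes. Under median-ratio scaling 5 rose and 8 fell in WT, and 6 rose and 6 fell in Act, beside 23.0% higher and 21.7% lower of all genes tested with that scaling in WT, and 20.4% and 20.4% in Act. The glypican gene Gpc1 rose from a mean of 3.95 RPKM in WT NS to 33.3 in WT 5dw (log2FC 2.92), with Sdc1 (syndecan-1) at 0.96 and Itga7 (a laminin-binding integrin chain) at 0.68. Without WT 5dw replicate 3, Sdc1 at 0.77 and Itga7 at 0.55 lost their calls, and Sdc1 also did without WT NS replicate 1, at 0.84. Bcam, Itga6 and Itga3, all receptors for laminins, fell by a log2FC of -2.05, -1.68 and -1.64. These 3 genes and Col17a1 are also expressed in keratinocytes, and they were highest among the WT 5dw libraries in replicate 3, the one with the most keratin RNA. Itga6 was at 0.527, 0.961 and 3.48 RPKM in the 3 WT 5dw libraries and Col17a1 at 2.42, 4.24 and 17.9, beside Krt14 at 57.8, 115 and 528. The 12 keratinocyte markers fell from a sum of 1310 to 4883 RPKM in NS to 133 to 1128 in 5dw, and their part in these falls was not tested. Without WT 5dw replicate 3 the log2FC of Col17a1 was -3.07.

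The enzymes and chaperones that fold and cross-link collagen IV and other collagens went the other way from the collagen IV genes themselves. Of 14 such genes, 13 rose and 0 fell in each genotype, where 9.45% (WT) and 9.04% (Act) of all tested genes rose. Some of these calls hung on single libraries. In WT, Ppib (0.39) and Sec23a (0.40) lost theirs without WT 5dw replicate 1 (0.35 and 0.36), among other omissions. In Act, Ppib (0.41) did without Act NS replicate 1 (0.35), among others, and Plod3 was at 0.82, and at 0.42 without Act 5dw replicate 3. Their median log2FC was 0.96 in WT and 1.02 in Act, beside -0.40 and -0.31 for all tested genes. Plod2 (a lysyl hydroxylase) rose from a mean of 17.4 RPKM in WT NS to 83.2 in WT 5dw (log2FC 2.32), P3h1 (a prolyl 3-hydroxylase) had a log2FC of 1.45 and P4ha2 (a prolyl 4-hydroxylase) 1.20. Mia3, which helps to export large collagens, was the exception, at -0.17 (limma, adjusted p = 0.20). Under median-ratio scaling all 14 rose in both genotypes, beside 23.0% (WT) and 20.4% (Act) of all genes tested with that scaling. Of 17 genes for proteases, sulfatases and their inhibitors, 16 were tested, 8 rose and 3 fell in WT, and 7 rose and 3 fell in Act, beside the shares of all tested genes given above. Under median-ratio scaling 11 rose and 2 fell in WT, and 10 rose and 2 fell in Act, beside the median-ratio shares of all genes given for the receptors. Mmp9, a gelatinase that cleaves collagen IV, was at 3.48, 0.227 and 0.105 RPKM in WT NS and 18.2, 14.97 and 24.1 in WT 5dw. Its log2FC was 4.00, and 4.86 without WT NS replicate 1, the one NS library in which it exceeded 1 RPKM. Timp1, an inhibitor of such enzymes, rose from a mean of 44.3 to 675 RPKM (3.96) and Mmp3 from 142 to 437 (1.64). Timp3, Timp2 and Hpse, the heparanase that cuts perlecan's side chains, fell by a log2FC of -2.71, -1.57 and -0.46, and Hpse was at -0.03 under median-ratio scaling and lost its call without WT NS replicate 2 (-0.35), WT 5dw replicate 1 (-0.44) or WT 5dw replicate 3 (-0.45).

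Markers of other cells that make basement membrane were read in the same libraries. Their counts as deposited stand beside 9.45% of all tested genes called higher and 48.8% lower in WT, and 9.04% and 36.5% in Act. Their counts under median-ratio scaling stand beside 23.0% higher and 21.7% lower in WT, and 20.4% and 20.4% in Act. The 12 endothelial markers summed to 23.8 to 41.3 RPKM in NS and 22.6 to 29.8 in 5dw, and 4 of 12 passed the filter, of which 1 rose and 1 fell in WT, and 2 rose and 1 fell in Act. Under median-ratio scaling 2 rose and 1 fell in WT, and 2 rose and 0 fell in Act. Tek led them in NS and fell from 13.9 to 29.4 RPKM to 4.74 to 10.2 in 5dw. The log2FC of Tek in Act was -1.33, and -0.82 without Act 5dw replicate 3. Pecam1 led the endothelial markers in 5dw and rose from 3.39 to 5.66 RPKM to 11.46 to 14.0. The 10 markers of pericytes and smooth muscle summed to 16.6 to 26.0 and 14.7 to 21.5, with 2 rising and 3 falling of 8 tested in WT, 3 rising and 2 falling in Act, and 3 rising and 1 falling in each genotype under median-ratio scaling. Cspg4 led them in NS and fell from 3.76 to 7.23 RPKM to 0.795 to 1.22, while Abcc9 led them in 5dw and rose from 2.50 to 4.85 RPKM to 5.53 to 11.1. The call of Abcc9 in WT (log2FC 0.63) was lost without WT 5dw replicate 2 (0.49), WT NS replicate 2 (0.59) or WT NS replicate 3 (0.53). The 8 Schwann cell markers summed to 113 to 162 in NS and 38.5 to 49.5 in 5dw, nearly all of it Pmp22, and all 4 tested fell in both genotypes, as Lama2, Col4a1 and Col4a2 did. The 12 keratinocyte markers summed to 286 and 341 in the Act 5dw libraries, and in WT 5dw they summed to 133, 261 and 1128, so the upper end in 5dw is WT 5dw replicate 3 alone. Of the 12, 10 fell in both genotypes, and 8 did under median-ratio scaling. Krt10 led them in NS, at 297 RPKM or more, and was at 31.9 or less in 5dw, where Krt14 led at 57.8 to 528. Adipocyte markers summed to 6.64 to 9.16 and 5.44 to 13.0 (led by Fabp4), and skeletal muscle markers to 3.11 to 6.85 and 1.86 to 2.62 (led by Tnnt3). The 9 immune markers summed to 8.14 to 42.9 and 61.7 to 115, led by Cd3e in all libraries but WT NS replicate 1, and 4 were tested, of which 2 rose and 0 fell in WT, and 1 rose and 1 fell in Act. Cd3e had a log2FC of 3.37 in WT (limma, adjusted p = 0.0024) and 2.44 in Act (limma, adjusted p = 0.028), and the call in Act was lost without Act NS replicate 1 (1.63), Act NS replicate 3 (2.39) or either Act 5dw library (2.41 and 2.46). Without Act NS replicate 2 the log2FC of Cd3e in Act was 3.29, and without both NS libraries numbered 1 it was 1.63, both past the test (limma, adjusted p = 0.0036 and 0.032). The 5 markers that did not pass the filter, Ptprc among them, had group means of at most 0.334 RPKM. The 12 fibroblast markers, led by Dcn in NS and in 5dw by Col1a1 (by Col3a1 in Act 5dw replicate 1), summed to 14219 to 19913 in NS and 25017 to 28377 in 5dw, with 5 rising and 5 falling in WT, and 4 rising and 4 falling in Act. This even split did not hold under median-ratio scaling, with 7 rising and 2 falling in WT, and 6 and 3 in Act. Pdgfra, the gene of the sort marker, was among those that fell, with a log2FC of -0.63 in WT and -0.80 in Act. Under median-ratio scaling it was at -0.18 in WT, which did not pass (limma, adjusted p = 0.27), and at -0.44 in Act, which did (limma, adjusted p = 0.028). No marker was at 0 in every library, and the part of these other cells in the values of the 10 genes was not tested.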

How the data were processed

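RNA sequencing of FACS-sorted skin fibroblasts was analysed from the deposited gene table, which holds 11 libraries of 4 groups. The authors aligned single-end 100-bp reads of poly-A RNA to GRCm38 in CLC Genomics Workbench 12, counted reads per gene and deposited RPKM values, leaving out 1 Act 5dw sample at quality control. Their edgeR exact test takes counts and was not run here. The annotation, strand setting and treatment of multi-mapping reads used for counting are not given in the sources used here.

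The filter kept genes that reached an RPKM of 1 in 2 or more libraries, and limma-trend was run on log2(RPKM + 0.5) (limma 3.58.1, R 4.3.3) with a mean for each group, all 11 libraries and 7 residual degrees of freedom. A fold change on this scale understates that of low genes. The Benjamini-Hochberg adjustment was made per comparison, with DEGs called at 0.05. Ratios were tested by exact two-sided permutation of tissue within genotype. p-values measure the spread between pools of 3 animals. Mapped totals were recovered from the RPKM steps with a tolerance of 0.03 reads; 83.2% to 84.3% of low values came out whole. Positions came from GENCODE M21 and sequences from RefSeq (GRCm38.p6).

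The 10 genes, the pathway lists and the marker lists were chosen with earlier results of these data known. Named genes were the 10, up to 3 DEGs with the highest and 3 with the lowest log2FC of each pathway list in WT, the most abundant gene of each marker list and the closest correlate of each gene; Mia3, Lamb2, Pecam1, Cspg4, Krt14, Dcn and Col3a1 were named after their values were seen. Replicate numbers were taken from the labels. Deviations of same-numbered libraries correlated at 0.33 to 0.55 between WT NS and Act NS. They correlated at 0.11 to 0.19 between WT NS and WT 5dw, and at 0.20 to 0.26 between Act NS and WT 5dw. All of these exceeded 0.1, but so did 5 of 30 pairs with other numbers over all groups, up to 0.31. The numbers may thus pair those groups, but this rests on the data alone and was not tested. Act 5dw, with 2 libraries, gave 0.16, 0.14 and 0.19 for number 3 and -0.12, 0.019 and -0.078 for number 1, so its pairing, used in the block and the paired ratio test, is not shown. Alternatives were other pseudocounts (0.1 and 1), no filter, median-ratio scaling, a replicate block, omission of each library or of both NS libraries numbered 1, fits of the compared groups alone and removal of GC trends.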

Additional observations from a re-analysis of the deposited data

How the results depend on the processing

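The count of the 10 genes called per comparison stayed within 1.5 times its value in every setting tried; omission of single libraries gave 5 to 6 in WT 5dw against WT NS, 5 to 8 in Act 5dw against Act NS, and 0 in both genotype comparisons and the interaction. Without the filter, 26465 genes were tested, and 10 instead of 0 were called in the interaction, 9 instead of 2 in Act NS against WT NS and 18 instead of 4 in Act 5dw against WT 5dw. Over the other settings these counts were 0 to 2, 0 to 11 (11 without the 2 NS libraries numbered 1) and 0 to 6. Without Act 5dw replicate 3, 3505 instead of 5459 genes were called in Act 5dw against Act NS. Which of the 10 genes were called did change with scaling, as given beside each gene. A lone Act 5dw library was assumed to vary like the other groups. The 6 ratios kept their direction under both other pseudocounts, with the replicate block, without each single library and without the 2 NS libraries numbered 1, and the cause of changes was not tested.

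With a replicate block no call changed in WT 5dw against WT NS, and Lamb1 gained one in Act 5dw against Act NS (0.46). Pairing left the 4 ratio differences at -0.35 (Col4a1 to Col4a2), -2.43 (Lama2 to Lama4), 1.015 (Lamb1 to Lamc1) and 0.53 (Nid1 to Lamc1), each past the threshold without pairing and at an adjusted p of 0.09375 with it, since 5 pairs give no p below 0.0625. Without single libraries these ranged from -0.38 to -0.33, -2.51 to -2.25, 0.92 to 1.04 and 0.44 to 0.57. With the block Hspg2 turned to -0.019 in Act 5dw against WT 5dw and to -0.015 in the interaction.

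The log2FCs that changed sign were not past the test in either setting. With median-ratio scaling these were Nid1 in WT 5dw against WT NS (0.13), Lama2, Lama4, Lamb1, Lamc1 and Hspg2 in Act NS against WT NS (0.10, 0.12, 0.13, 0.058 and 0.14), and Lama4, Lamc1 and Hspg2 in the interaction (-0.041, -0.011 and -0.015). With GC trends removed they were Nid1 (0.042), the same 5 genes in NS (0.088, 0.10, 0.10, 0.028 and 0.10) and Lama4 in the interaction (-0.031). Without the 2 NS libraries numbered 1 they were Nid1 in Act 5dw against Act NS (-0.069), Lama2, Lama4, Lamb1 and Hspg2 in Act NS against WT NS (0.044, 0.14, 0.17 and 0.13), and Lama4, Lamb1 and Hspg2 in the interaction (-0.10, -0.076 and -0.045).

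Omission of single libraries also turned signs of uncalled values. Nid1 ranged from -0.069 to 0.33 in Act 5dw against Act NS. In Act NS against WT NS the ranges were -0.084 to 0.40 for Col18a1, -0.14 to 0.020 for Lama2, -0.18 to 0.11 for Lama4, -0.15 to 0.10 for Lamb1 and -0.17 to 0.10 for Hspg2. In Act 5dw against WT 5dw they were -0.088 to 0.60 for Lama2, -0.048 to 0.12 for Lama4, -0.070 to 0.088 for Lamc1 and -0.19 to 0.35 for Hspg2. In the interaction they were -0.050 to 0.64 for Lama2, -0.071 to 0.22 for Lama4, -0.0056 to 0.25 for Lamb1 and -0.18 to 0.35 for Hspg2.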
